A study of Danio rerio with 2 samples.

Results

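The lens crystallins are the genes described here: those whose Ensembl gene name starts with cryaa, cryab, cryba, crybb, crybg, crygm, crygn or crygs, with a count, scaled to library size (CPM), of at least 1 in 1 or both libraries. Of 60 such genes in the table of 26597 features, 43 reached that level, namely 1 of 3 alpha, 14 of 16 beta and 28 of 41 gamma crystallin genes. The crybg genes are counted in the beta class, and cryptochromes are not included. The series holds 1 salvianolate-treated and 1 wild-type (WT) zebrafish RNA library, and the labels of both name cardiac tissue as the source of total RNA. Salvianolate is made from the root of Salvia miltiorrhiza and is rich in salvianolic acids. The treated library's title speaks of embryos, and the labels give no dose, duration, age or number of animals for either library. The count column is headed DSDF in the treated library's own file and AB72h in the WT library's, and no source used here explains either name. With 1 library per group no difference has a replicate check, no test between conditions exists, and the intervals given cover counting error only.

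Crystallins are the main soluble proteins of the lens, where elongated fibre cells fill with them and then lose their nuclei. Alpha crystallins are small heat shock proteins that keep other proteins from aggregating. Beta and gamma crystallins share a fold of Greek key motifs, with beta crystallins forming oligomers and gamma crystallins staying monomeric. The gammaM crystallins, named crygm in zebrafish, are a methionine-rich class typical of fish lenses.

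Summed over all 60 genes by name, the crystallin genes took a larger part of the salvianolate-treated library than of the WT library. Their summed counts made up 1.56% of all counts in the treated library (exact Clopper-Pearson 95% interval 1.56 to 1.57) and 1.12% in the WT library (1.11 to 1.12), or 15307 CPM against 11438 CPM after TMM scaling. The ratio of these sums was 1.34-fold (1.33 to 1.35). In RNA of mixed cells, more cells of a type and more RNA per cell cannot be told apart. Of the 43 members above the floor, 40 had a log2 ratio of treated over WT above 0, while 49.7% of all 19829 features above the floor had one. The median log2 ratio was 0.44 over the members and -0.002 over all features, and 11.4% of all features had a ratio at or above the members' median. The counting interval lay above a ratio of 1 for 38 members, where 17.4% of all features met that rule, and below 1 for 1 member, where 17.3% did. Abundant genes have narrow intervals, so that small differences pass this rule. Of the 43 members, 21 are adjacent crygm2d copies that may share reads, so these counts of members are not counts of separate loci. With the crygm genes summed as 1 feature, 15 of 18 features had an interval above 1. At least 2-fold higher with an interval excluding 1 were 2 members, crybgx and crygm2d11, beside 2.69% of all features, and none was 2-fold lower, beside 0.721%. None of the 43 members was 4-fold higher or lower, beside 0.378% and 0.106% of all features.

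**Figure D1:**
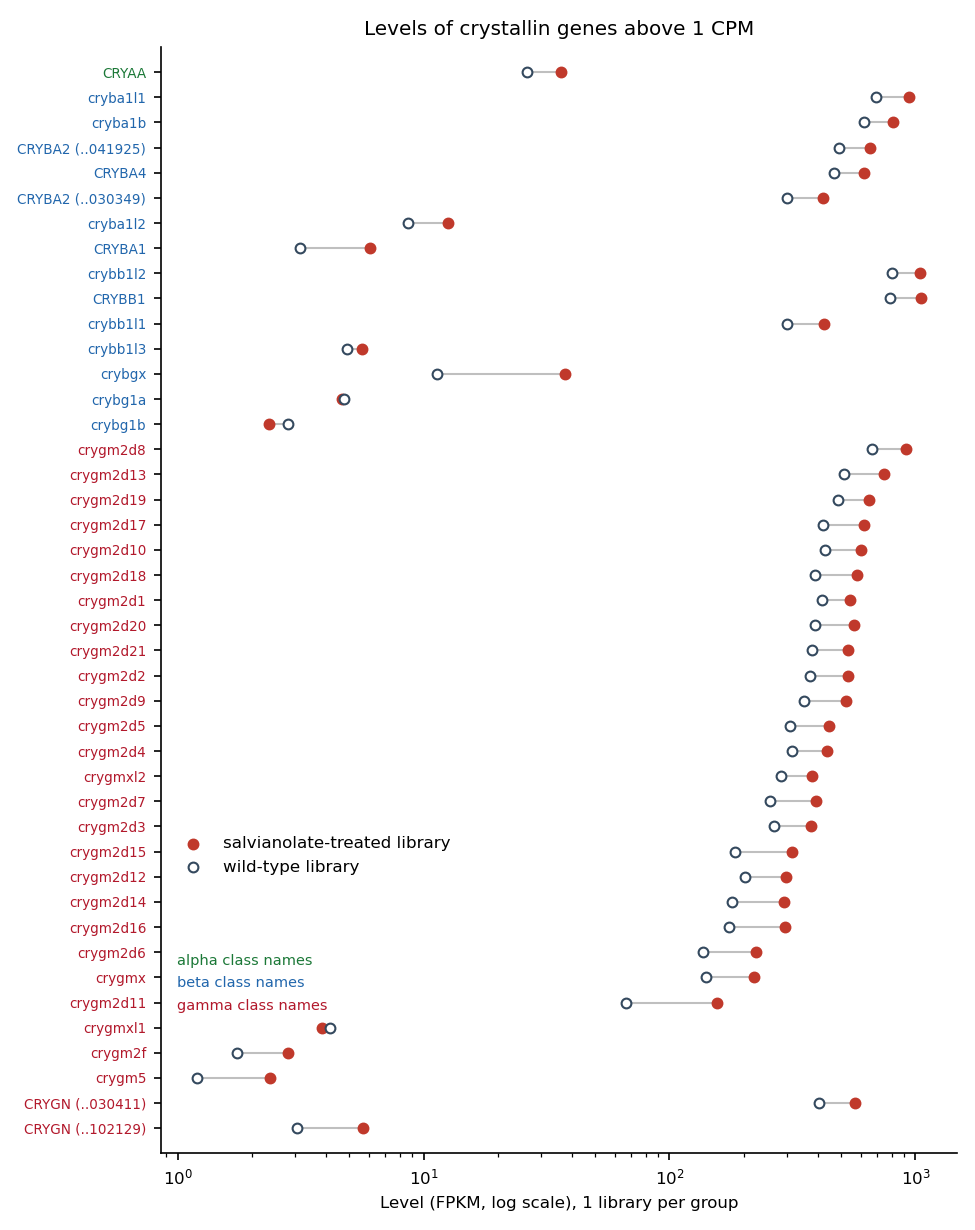
Level of each crystallin gene above 1 CPM in FPKM on a log axis, with filled points for the salvianolate-treated library and open points for the WT library, 1 library each, and gene names coloured by class. Filled points stand right of open ones for most genes, such as CRYAA at 36.1 against 26.3 FPKM and CRYBB1 at 1052 against 786 FPKM. The 3 exceptions are crybg1a, crybg1b and crygmxl1.

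The labelled tissue and the lens were checked by their markers. MYL7, which encodes a cardiac myosin light chain, had 14.7 CPM in the treated and 19.1 CPM in the WT library, and the 11 heart muscle genes above the floor summed to 693 and 747 CPM. Most of that sum was actc1a, an actin gene, at 575 and 624 CPM. Lens crystallins thus had more counts than the heart markers in both libraries, although lens is not in the labels. Of 14 listed skeletal muscle names, 8 matched a gene, all above the floor. These genes summed to 39717 CPM in the treated and 35528 CPM in the WT library, more than the crystallins. The libraries held 19295524 counts (treated) and 19531764 counts (WT), and a count of 3 equals 0.152 and 0.157 CPM. The series' design text reports more genes down- than up-regulated in the treated group, whereas 533 features were at least 2-fold higher and 143 lower by the rule used here. Every direction here follows the library labels.

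Among the alpha crystallins, CRYAA (ENSDARG00000053502), the lens chaperone of the class, carried nearly all counts. It stood at 36.1 FPKM in the treated and 26.3 FPKM in the WT library, where FPKM is the deposited level per gene length and library size. The log2 ratio of its counts was 0.40 (0.26 to 0.54). The alpha class made up 0.210% of the summed crystallin FPKM in the treated library and 0.216% in the WT library, far less than either other class. The genes named CRYAB were below the floor in both libraries. CRYAB is also an abundant protein of heart muscle in mammals. CRYAB ENSDARG00000101380 had 7 counts in the treated and 6 in the WT library. CRYAB ENSDARG00000042621 had 0 counts in both, which allows up to 0.152 CPM in the treated and 0.157 CPM in the WT library. The other small heat shock protein genes, relatives of the alpha crystallins, had a median log2 ratio of -0.02 over 8 genes. Of these, HSPB3 lay highest at 0.78 (0.02 to 1.59), from 41 and 23 counts, and hspb11 lowest at -0.82 (-1.66 to -0.04), from 22 and 38 counts. The most abundant, HSPB1, a stress-induced chaperone gene, stood at 27.1 FPKM in the treated and 28.7 FPKM in the WT library.

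The beta crystallins had a summed ratio of 1.28-fold (1.27 to 1.29), and the acidic and basic branches of the class differed little in it. The acidic cryba genes summed to 3465 FPKM in the treated and 2573 FPKM in the WT library, and the basic crybb genes to 2525 and 1897 FPKM. Their log2 ratios were 0.37 (0.35 to 0.38) for cryba and 0.36 (0.34 to 0.38) for crybb. Within each library, crybb counts were 0.896 times the cryba counts in the treated and 0.901 times in the WT library. The treated ratio was 0.995 times the WT ratio (exact interval 0.978 to 1.01), an interval that includes 1.

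The abundant beta crystallins lay close together. CRYBB1 (ENSDARG00000068507), a basic subunit, led the class in the treated library at 1052 FPKM, against 786 FPKM in WT. Its neighbour in level, crybb1l2, stood at 1041 FPKM in the treated and 804 FPKM in the WT library, the highest member there. Their log2 ratios were 0.36 (0.33 to 0.39) and 0.31 (0.28 to 0.34). Their order by FPKM differed between the libraries, but their levels within each library were nearly equal. The counting intervals of their ratios overlapped, which does not show that the ratios are equal. Of the acidic subunits, cryba1l1 stood at 939 FPKM in the treated and 690 FPKM in the WT library, a log2 ratio of 0.38. Next came cryba1b at 808 and 617 FPKM, with a log2 ratio of 0.33. CRYBA2 ENSDARG00000041925 followed at 656 and 488 FPKM, and CRYBA4 at 621 and 465 FPKM. Their log2 ratios were 0.36 and 0.35, so that these 4 acidic members kept 1 order of level in both libraries. The basic gene crybb1l1 had the highest log2 ratio of its branch, 0.44 (0.40 to 0.47). It stood at 426 FPKM in the treated and 301 FPKM in the WT library.

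Beta members at low levels spread more widely. CRYBA1 stood at 6.08 FPKM in the treated and 3.14 FPKM in the WT library, from 111 and 59 counts, with a log2 ratio of 0.86 (0.40 to 1.35). The log2 ratio of cryba1l2, at 12.6 and 8.68 FPKM, was 0.48 (0.26 to 0.70). For crybb1l3, at 5.61 FPKM in the treated and 4.89 FPKM in the WT library, the log2 ratio was 0.14 (-0.22 to 0.50). A difference was not detectable at this depth. In RefSeq's GRCz12tu assembly, crybb1l3 lies within the span of cryba1a, for which cryba1 is a synonym. Whether reads of these genes can be fully separated was not tested, and CRYBA1 and crybb1l3 had whole-number counts in both libraries. CRYBB2 and CRYBB3, basic crystallins of the mammalian lens, were below the floor. CRYBB2 had 10 counts in the treated and 13 in the WT library, at 0.507 and 0.680 CPM, and was the member closest under the floor. CRYBB3 had 5 counts and 1 count.

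The crybg genes, which encode proteins with beta and gamma crystallin domains, did not differ in 1 direction. crybgx (ENSDARG00000036140) had the highest ratio of all members above the floor. It stood at 37.6 FPKM and 532 counts in the treated library against 11.3 FPKM and 162 counts in WT. This is 3.18-fold, a log2 ratio of 1.67 (1.41 to 1.93). crybg1a and crybg1b correspond in name to human CRYBG1, a gene outside the lens crystallins. crybg1a stood at 4.65 FPKM in the treated and 4.75 FPKM in the WT library, with a log2 ratio of -0.12 (-0.26 to 0.02). crybg1b, at 2.35 and 2.82 FPKM, had -0.37 (-0.61 to -0.14) and was the only member whose interval lay below a ratio of 1. crybgx was thus high in the treated library, and the other crybg genes were level or lower there.

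**Figure D2:**
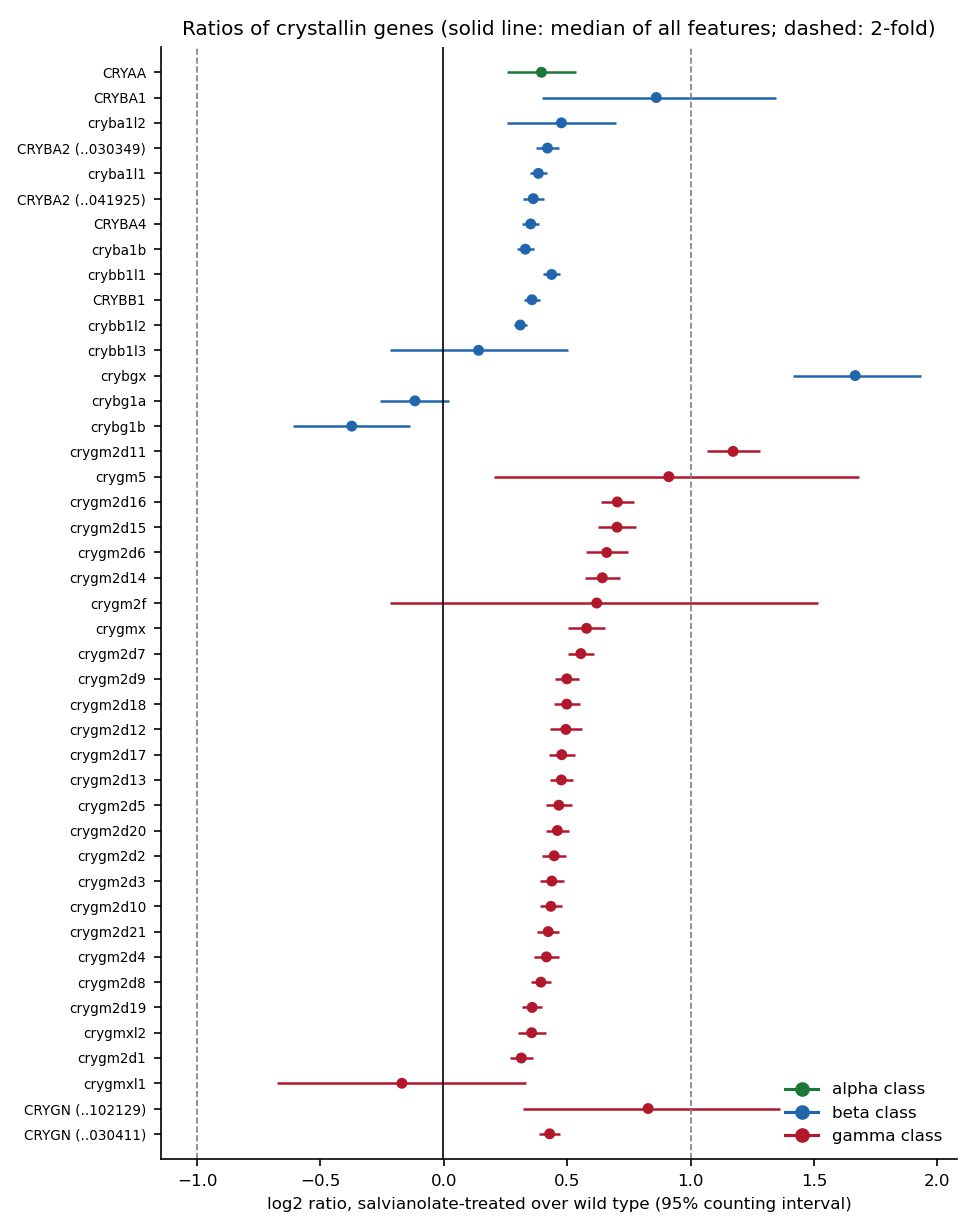
Log2 ratio of treated over WT for each crystallin gene above 1 CPM, with lines for the 95% counting interval, colours for the class, a solid line at the median of all features (-0.002) and dashed lines at 2-fold. Most ratios stand between 0.31 and 0.70, and crybgx at 1.67 and crygm2d11 at 1.17 lie beyond the upper dashed line.

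The gamma crystallins made up most of the crystallin level and had a higher summed ratio than the beta class. They took 64.9% of the crystallin FPKM in the treated library and 63.2% in WT, while the beta class took 34.9% and 36.6%. Their summed ratio was 1.38-fold (1.37 to 1.39). Gamma counts were 1.34 times the beta counts in the treated library and 1.24 times in the WT library. The treated ratio was 1.08 times the WT ratio (exact interval 1.06 to 1.09), a value that no library scaling can alter. Counting error does not cover it, and whether it exceeds the spread between fish or libraries was not measured. For the alpha to beta ratio this value was 1.02 (0.930 to 1.13), an interval that includes 1.

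Nearly all gamma transcripts came from the crygm genes, and among these from the 21 copies named crygm2d. The crygm genes summed to 8185 CPM in the treated and 5912 CPM in the WT library, a log2 ratio of 0.47 (0.46 to 0.48). The crygm2d copies alone summed to 7695 and 5549 CPM, with the same log2 ratio of 0.47 (0.46 to 0.48). All 21 copies had an interval above a ratio of 1. Their single log2 ratios lay between 0.31 and 1.17, with a median of 0.48. The other 5 crygm genes above the floor and 9 below it summed to 490 and 362 CPM, with 0.44 (0.39 to 0.48).

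The most abundant copy, crygm2d8 (ENSDARG00000116164), stood at 911 FPKM in the treated and 664 FPKM in the WT library, a log2 ratio of 0.39 (0.35 to 0.44). crygm2d13, the only copy with whole-number counts in both libraries, stood at 743 FPKM in the treated and 511 FPKM in the WT library. Its log2 ratio was 0.48 (0.43 to 0.52). The 20 other copies had estimated counts that are not whole, and near-identical copies may share reads, so values of single copies are uncertain and their sum is the firmer value. crygm2d19 stood at 646 and 483 FPKM and crygm2d17 at 615 and 423 FPKM, with log2 ratios of 0.36 and 0.48. crygm2d1 stood at 542 FPKM in the treated and 417 FPKM in the WT library. Its log2 ratio of 0.31 (0.27 to 0.36) was the lowest of the copies. The highest was that of crygm2d11 (ENSDARG00000069827), at 156 FPKM in the treated and 66.3 FPKM in the WT library, which is 2.25-fold and a log2 ratio of 1.17 (1.07 to 1.28). crygm2d11 was also the least abundant copy in both libraries.

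In the RefSeq gene order of GRCz12tu, used for neighbourhood only because the build differs from that of the files, 34 members lie in 1 array of 37 coding genes. The 21 crygm2d copies follow each other without another coding gene between them. The 8 members before them and the 5 after them stood at no more than 3.86 FPKM in the treated and 4.16 FPKM in the WT library, and 3 of these 13 passed the floor. The array thus held a highly expressed middle and sparse ends in both libraries. Among the copies, 5 had log2 ratios of 0.64 or more (crygm2d11, crygm2d15, crygm2d14, crygm2d16 and crygm2d6), while the other 16 lay between 0.31 and 0.56. All 5 are among the first 10 copies of the run and among the 6 least abundant by mean FPKM. The counts of all 5 are not whole numbers, and the part of shared reads in their ratios was not tested. Summed over the first 10 copies the log2 ratio was 0.51 (0.49 to 0.53), and over the last 11 it was 0.44 (0.43 to 0.46). This split and the grouping of the 5 copies were chosen after their values were seen.

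**Figure D3:**
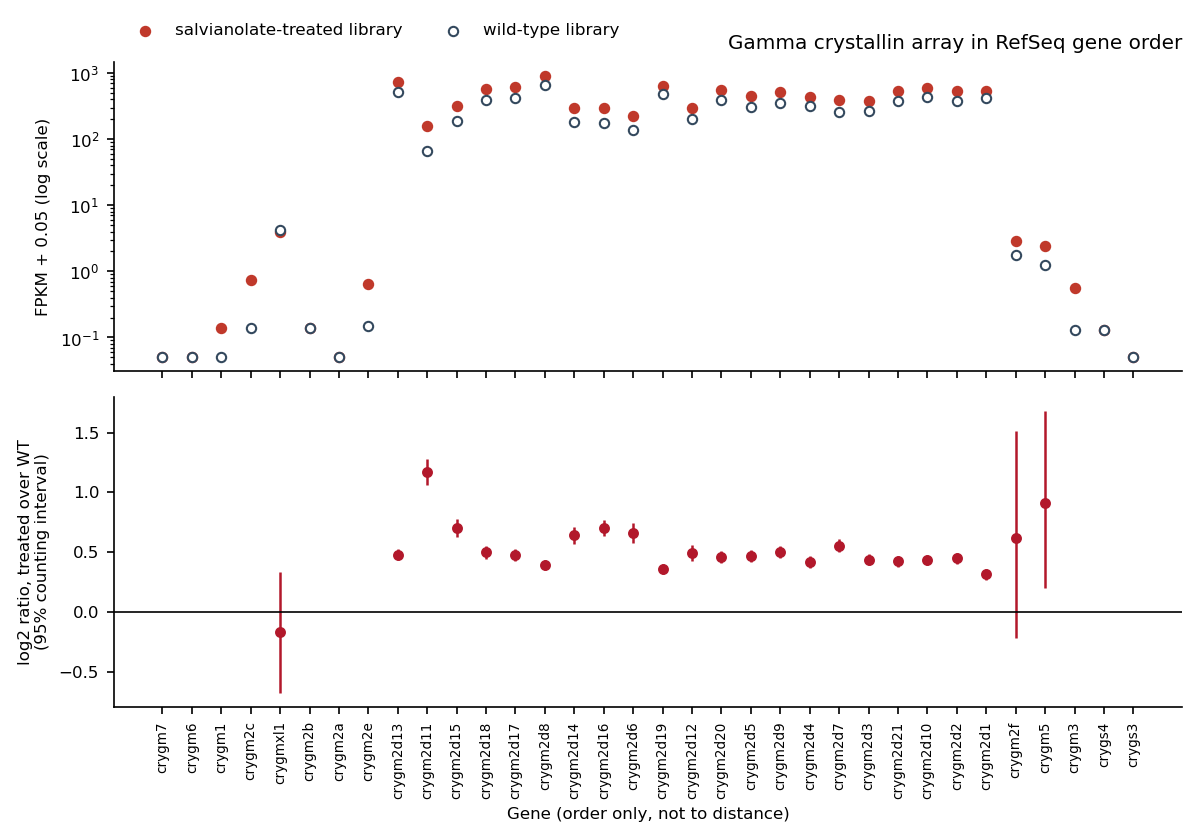
Crystallin genes of the gammaM array in RefSeq order, evenly spaced, with the level in each library above (FPKM + 0.05, log axis; filled points treated, open points WT, drawn on top where they coincide) and the log2 ratio of treated over WT with its 95% counting interval below for genes above 1 CPM. The 21 crygm2d copies stand between 156 and 911 FPKM in the treated library and between 66.3 and 664 FPKM in WT, the flanking genes at 4.16 FPKM or less.

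Outside that run, the adjacent genes crygmx and crygmxl2 were abundant. crygmx stood at 221 FPKM in the treated and 141 FPKM in the WT library, a log2 ratio of 0.58 (0.50 to 0.65). crygmxl2 stood at 379 and 284 FPKM, with 0.36 (0.30 to 0.41), so that neighbours differed in ratio beyond their counting intervals. In the array, crygmxl1 had 66 counts in the treated and 72 in the WT library, with a log2 ratio of -0.17 (-0.67 to 0.33). It was the only gamma member above the floor with a log2 ratio below 0. crygm5 had 49 and 25 counts, a log2 ratio of 0.91 (0.20 to 1.68). crygm2f, the member closest above the floor at 1.62 CPM in the treated and 1.05 CPM in the WT library, had 0.62 (-0.22 to 1.52). crygm2c had 8 counts in the treated library and 1 in WT. The 8 other crygm genes below the floor had at most 6 counts in either library.

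The crygn genes, which combine features of the beta and gamma families, both had an interval above 1. CRYGN ENSDARG00000030411 stood at 568 FPKM in the treated and 404 FPKM in the WT library, with a log2 ratio of 0.43 (0.39 to 0.47). CRYGN ENSDARG00000102129 stood at 5.68 and 3.05 FPKM, with 0.83 (0.32 to 1.36). The 4 crygs genes, whose mammalian relative is a crystallin of the lens cortex and the adult lens, were all below the floor and summed to 3 counts in the treated and 6 in the WT library. The gamma class in both libraries was therefore crygm and crygn.

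Neighbouring beta genes were compared side by side. CRYBB1 and CRYBA4, adjacent in RefSeq's order, had log2 ratios of 0.36 and 0.35. For crybb1l1 and its neighbour cryba1l1 they were 0.44 and 0.38. The neighbours crybb1l2 and cryba1l2 had 0.31 and 0.48, at levels far apart, 1041 and 12.6 FPKM in the treated library and 804 and 8.68 FPKM in WT. In each case the counting intervals of the neighbours' ratios overlapped.

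Across the 43 members, FPKM in the treated and in the WT library had a Spearman rank correlation of 0.995, a description over genes that share the same libraries. The 32 members with a mean of 100 FPKM or more over both libraries, 8 beta and 24 gamma, had log2 ratios between 0.31 and 1.17. The highest was that of crygm2d11, and the 31 members at 100 FPKM or more in each library lay between 0.31 and 0.70. With a fold of 1.5 in place of 2, 9 members were higher and none lower, where 6.07% and 2.64% of all features were. Besides crybgx and crygm2d11 these were CRYBA1, crygm5, CRYGN ENSDARG00000102129, crygm2d15, crygm2d16, crygm2d14 and crygm2d6. The 5 crygm2d copies among the 9 had counts that are not whole, and the 21 copies summed had a ratio of 1.39-fold. CRYBA1, crygm5 and CRYGN ENSDARG00000102129 had 111, 49 and 92 counts in the treated library.

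Other genes of the lens were read from a list of fibre genes and a list of transcription factor genes. Of 23 genes of lens fibre structure and differentiation above the floor, 12 had an interval above 1, none had one below, and none was 2-fold different, where 17.4% of all features had an interval above 1 and 17.3% below. Their median log2 ratio was 0.25. LIM2 (ENSDARG00000015445), a lens fibre membrane protein gene and the most abundant of them, stood at 150 FPKM in the treated and 128 FPKM in the WT library. Its log2 ratio was 0.17 (0.09 to 0.25). GJA3, a gap junction gene of fibre cells, had the highest log2 ratio, 0.66 (0.17 to 1.18), at 3.15 and 1.90 FPKM. caprin2, an RNA-binding protein gene, had the lowest, -0.49 (-1.53 to 0.49), from 16 and 22 counts. Lens transcription factor genes went both ways, with 7 of 19 intervals above 1 and 6 below, beside the same 17.4% and 17.3%. Their median log2 ratio was 0.14. The libraries also held muscle and retina transcripts, so these ratios need not be those of lens cells. HSF4, a heat shock factor of the lens, stood highest at 0.54 (0.15 to 0.94), and foxe3, a factor of the lens epithelium, lowest at -0.74 (-1.46 to -0.07). MEIS1, the most abundant of that list and not confined to lens, had -0.13 (-0.18 to -0.07). The 4 genes named as crystallins in other animals or by enzyme relation (CRYL1, CRYZ, cryzl1 and CRYM) had no interval apart from 1. Their log2 ratios lay between -0.19 for CRYL1 and 0.39 for CRYM.

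Genes of the retina, another tissue of the eye, were mostly higher in the treated library as well. Photoreceptor genes summed to 1939 CPM in the treated and 476 CPM in the WT library. Among 28 expressed at 1 CPM or more, 26 were 2-fold higher or more and none 2-fold lower, where 2.69% and 0.721% of all features were, with a median log2 ratio of 2.19. The highest log2 ratio, 3.16 (2.47 to 4.01), was that of grk1b, an opsin kinase gene. Of 16 other retina genes, 10 had an interval above 1 and 2 below, beside 17.4% and 17.3% of all features. Their median log2 ratio was 0.33. Among them NEUROD1, a proneural factor also found outside the retina, had 0.36 (0.28 to 0.43), cabp5a, a calcium-binding protein gene, 1.21 (0.19 to 2.41), and atoh7, a factor of retinal ganglion cell formation, -0.74 (-1.12 to -0.37). The median of 8 skeletal muscle genes was 0.29, from 0.005 for ckmb to 0.42 for myhz1.2, with actc1b, the most abundant, at 0.05 (0.04 to 0.05). Heart muscle genes had a median of -0.17 over 11 genes, from -0.89 for nppa to 0.40 for myl4, with actc1a at -0.12 (-0.16 to -0.08). The part of the amount of eye or muscle tissue in the crystallin ratios was not tested.

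**Figure D4:**
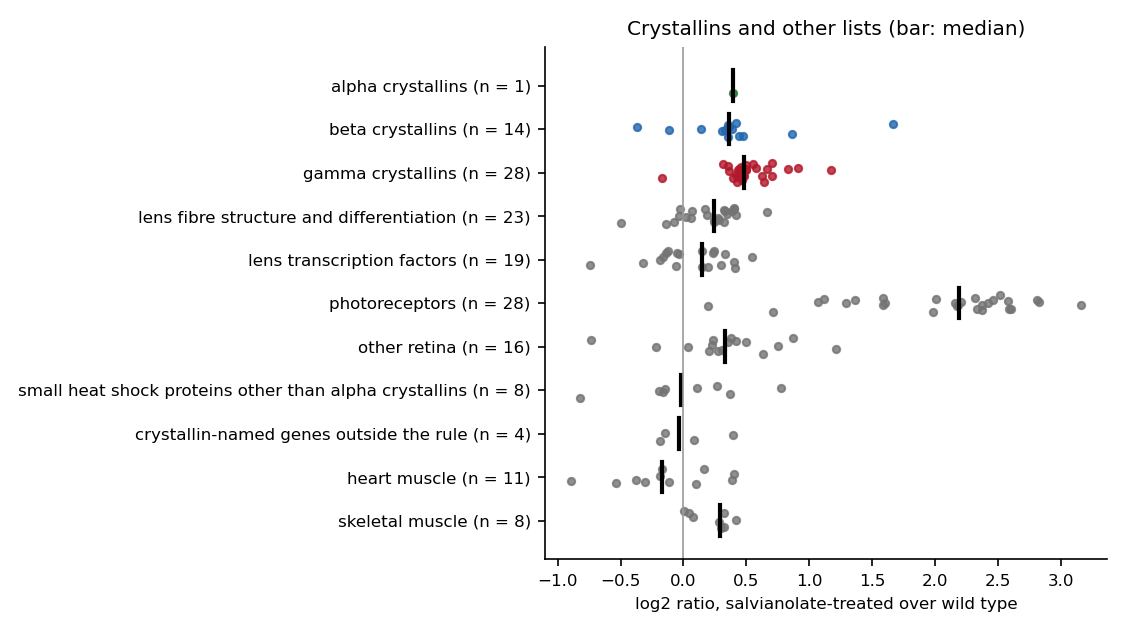
Log2 ratio of treated over WT for each gene above 1 CPM of the crystallin classes and of 8 other lists, with a bar at each median and vertical scatter added only for visibility. The medians are 0.40, 0.36 and 0.48 for the alpha, beta and gamma crystallins, 0.25 for lens fibre genes, 2.19 for photoreceptor genes and -0.17 for heart muscle genes.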

How the data were processed

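Groups follow the genotype labels, 1 library each. The authors' deposited table gives estimated counts (expected counts) and FPKM per gene, per the file headers. Per the submitters' processing notes, fastp 0.18.0, Bowtie2 2.2.8, HISAT2, StringTie 1.3.1, edgeR and DESeq2 were used with build danRer11, in roles not stated here. Of the estimated counts, 10.4% (treated) and 10.3% (WT) were not whole, and all were rounded. Library sizes were scaled with TMM factors (edgeR 4.0.16, R 4.3.3). Log2 ratios took treated over WT with 0.5 added counts, a floor of 1 CPM in either library and exact Clopper-Pearson 95% intervals on the share of both libraries' counts. Class sums and their ratios used all 60 genes by name, also those below the floor. The class sums compared between alternatives in the closing section used the genes above the floor, except where no floor was set. Ratios between classes used the exact conditional odds ratio interval. FPKM, scaled by the authors and without TMM factors, gave levels between genes. Gene names were matched to IDs in lower case. The lists held alternative spellings of some names, and names without a match were left out. Of the listed names, 21 of 30 lens fibre, 15 of 25 lens factor and 26 of 40 photoreceptor names matched a gene. For other retina, heart muscle and skeletal muscle, 13 of 18, 9 of 12 and 8 of 14 did. Named members are all alpha genes; per prefix the 4 most abundant and the 2 highest and 2 lowest ratios; 2-fold members; those beside the floor; and the highest, lowest and most abundant gene of each list. Others, such as single crygm2d copies with high ratios, neighbouring genes and MYL7, were added after their values were seen. Some genes of the photoreceptor list are not reported here by name. Members and lists were chosen with earlier results of these data known. Alternatives were total-count, DESeq2 1.42.0 and upper-quartile scaling, other floors, priors, folds and member sets, and FPKM. The steps were tested on simulated data (Python 3.11.15, scipy 1.17.1). These held counting error only, without spread between libraries or reads shared between copies.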

Additional observations from a re-analysis of the deposited data

How the results depend on the processing

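No paired analysis was possible because replicates are lacking. The log2 ratios of the beta and gamma sums were 0.36 and 0.47 and that of the median member 0.44. They became 0.42, 0.53 and 0.50 with total counts, and 0.43, 0.53 and 0.50 with FPKM. Upper-quartile factors gave 0.35 for the beta and 0.45 for the gamma sum. Without the most abundant member of each class the beta sum had 0.37. With the crygm copies as 1 feature the median member had 0.39, 15 members had an interval above 1 and 1 was 2-fold higher. Without the crybg genes 1 member was 2-fold higher and 0 had an interval below 1. The count of 2-fold higher members became 9 at 1.5-fold and 0 at 4-fold. Without a floor it was 3, and 39 members had an interval above 1. Of 112 recomputed values, 96 stayed within their interval or within 1.5 times the count, and no log2 ratio changed its sign. Some of these values could not move, as given below, so the 96 are not all checks. Unlike the other intervals, those of the medians run between the ratios of single members. Members are not replicates and copies may share reads, so these intervals cover neither counting error nor the spread between libraries. They are not the spread over genes either. Over all members the interval was 0.40 to 0.49, while the quartiles of the members were 0.36 and 0.57. The counting intervals of members do not depend on the added counts or on FPKM. The numbers of members with an interval above or below 1 could therefore not move under those settings. All 43 members had at least 1 CPM in both libraries, so a floor on the mean of 1 CPM kept the same members. Leaving out the crybg genes could not move the alpha and gamma values. Summing the crygm copies could not move the beta median. Total counts moved the median of all features by 0.06 on the log2 scale, FPKM by 0.055 and upper-quartile factors by -0.015. Without its most abundant member the alpha class had no member above the floor. The depth limits crystallin genes under the floor and those with under 100 counts, whose intervals are wide, and no setting stands in for replicate libraries.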
